A study of Mus musculus with 18 samples.

Results

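Type I interferon response genes are the genes that cells switch on when interferon-alpha or interferon-beta binds its receptor. A list of 37 of them was looked up by gene symbol among the 45703 genes of an expression table of mouse Th17 cells (interleukin-17-producing helper T cells), and all 37 were found. Of these, 31 reached 1 TPM (read counts scaled by exon length and then to a sum of 1000000 per library) in at least 3 of the 18 libraries and were tested among 14229 genes in all. The cells were grown from naive T cells with antibodies to CD3 and CD28 and Th17 cytokines for 48 hours, kept for a further 24 hours without or with acetate, and restimulated for 5 hours with PMA and ionomycin while brefeldin A and monensin blocked secretion. The 6 groups held 3 libraries each. ACLY-KO cells had the genotype Acly-fl/fl Cd4-cre, which deletes the gene of ATP citrate lyase, the enzyme that makes cytosolic acetyl-CoA from citrate. GLUT3-KO cells were Slc2a3-fl/fl Cd4-cre, which deletes the gene of the glucose transporter GLUT3. WT cells were wild type, with no Cre stated. Cd4-cre is active while T cells develop, so the target gene is lost before the cells are taken. Each genotype was grown with acetate (ACLY-KO + acetate, GLUT3-KO + acetate and WT + acetate) and without it (ACLY-KO, GLUT3-KO and WT). The acetate dose reads 20 mM in the sample protocols and 10 mM in the series text. All groups are on a C57BL background, written as C57BL/6 for 12 libraries and with another number for 6. The age and sex of the mice are not stated in the labels, and neither is the source of each replicate. The p-values therefore cover no more than the spread of these libraries, which may be technical.

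Interferon-alpha and interferon-beta are made after RNA or DNA sensors such as MDA5, RIG-I or cGAS meet nucleic acids where they do not belong. Both bind the receptor chains IFNAR1 and IFNAR2, whose kinases JAK1 and TYK2 phosphorylate STAT proteins. STAT2 and IRF9 are parts of ISGF3, the factor that binds the interferon-stimulated response element (ISRE), a repeat of GAAA in the promoters of target genes. The products block viral translation, cut RNA, tether virions, attach the ubiquitin-like protein ISG15 to other proteins, or sense nucleic acids and pass the signal on. One of them, IRF7, is itself needed for large amounts of interferon-alpha, and another, USP18, damps the receptor. In T cells type I interferon is known to restrain growth and to shift helper programs.

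The promoters of the list were searched for the letters that ISGF3 reads. RefSeq windows of 250 bases before to 50 bases after a transcript start (build GRCm38.p6) were present for 26 of the 37 genes. The ISRE-like motif, GAAA followed by any 2 bases and a further GAAA, searched on both strands, was in the window of 12 of these 26 genes (46.2%), against 3.99% of the 27025 genes with a window. The motif TTCNNNGAA, the core of a STAT dimer site, was in 6 of 26 (23.1%), against 9.55% of the same genes. Eif2ak2, Ifih1, Stat2 and Trim30a also carry the ISRE-like motif and are not shown. The stretches below are examples from the other genes with that motif. They are written 5′ to 3′ along the gene, with the letters of each ISRE-like match, on either strand, in capitals, and matches that overlap run together.
Isg15 (chr4:156200850-156200921, minus strand): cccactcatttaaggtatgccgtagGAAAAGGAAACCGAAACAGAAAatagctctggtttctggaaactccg
Oas1a (chr5:120907505-120907570, minus strand): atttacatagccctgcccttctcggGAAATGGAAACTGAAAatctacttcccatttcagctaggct
Bst2 (chr8:71537562-71537627, minus strand): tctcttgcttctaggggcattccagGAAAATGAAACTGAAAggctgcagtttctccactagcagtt
Ifit1 (chr19:34640760-34640838, plus strand): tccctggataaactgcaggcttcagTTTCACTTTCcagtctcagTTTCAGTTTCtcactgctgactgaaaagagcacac
Rsad2 (chr12:26456538-26456597, minus strand): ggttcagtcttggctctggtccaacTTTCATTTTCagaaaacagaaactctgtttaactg
Oas3 (chr5:120777700-120777759, minus strand): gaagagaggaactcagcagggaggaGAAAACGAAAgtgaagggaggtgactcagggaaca
Ifit3 (chr19:34583348-34583441, plus strand): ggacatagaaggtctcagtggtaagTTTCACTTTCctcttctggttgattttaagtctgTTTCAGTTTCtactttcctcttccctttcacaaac
Ifit3b (chr19:34607744-34607837, plus strand): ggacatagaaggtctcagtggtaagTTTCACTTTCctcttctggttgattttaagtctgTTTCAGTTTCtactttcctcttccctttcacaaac
The Isg15 stretch holds 3 overlapping matches, and those of Oas1a and Bst2 hold 2 each. Ifit1, Ifit3 and Ifit3b carry 2 separate matches on the other strand, and Rsad2 and Oas3 carry 1. The Ifit3 and Ifit3b stretches are identical at 94 of 94 positions, and reads of such recent copies may be shared between both genes, so their values are uncertain. Irf7, Irf9, Ifit2, Ifi35, Ifi44, Isg20, Oasl1, Oasl2, Xaf1, Samd9l, Dtx3l, Lgals3bp, Sp100 and Cmpk2 had no match in their windows. A match is a description of these letters and not a measured binding site.

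Depth, recovered from the TPM values, was 18697197 to 30101756 reads per library. Acly stood at 11.3 ± 3.85 TPM in ACLY-KO cells, against 396 ± 4.27 TPM in WT cells (SD, n = 3 each), and Slc2a3 at 6.17 ± 2.10 TPM in GLUT3-KO cells, against 17.7 ± 2.91 TPM in WT cells. The T cell genes Cd3d, Cd3e, Cd3g and Cd4 were read in every library. The 10 T cell and Th17 markers summed to 2905 to 3232 TPM in ACLY-KO + acetate, 1517 to 1627 TPM in ACLY-KO, 3030 to 3438 TPM in GLUT3-KO and 3150 to 3342 TPM in WT. Of these 10, 5 (Cd28, Il17a, Il17f, Il23r and Ccr6) were lower in ACLY-KO than in WT and 0 higher, where 6.38% of all tested genes were lower, and in GLUT3-KO against WT 3 were higher and 3 (Il17a, Il17f and Il23r) lower. Of 8 genes fixed as markers of plasmacytoid dendritic cells, the cells best known for interferon-alpha, 3 were tested and 2 (Siglech and Klk1) had no read in any library. Pacsin1 and Cox6a2 of that list were higher in ACLY-KO than in WT (log2 changes 2.55 and 1.26). Tcf4, the other tested gene of that list, was not called, at 202, 184 and 146 reads in ACLY-KO, against 272, 174 and 235 in WT. It was lower in ACLY-KO than in GLUT3-KO. The list summed to 14.6 to 48.3 TPM in ACLY-KO, against 8.11 to 10.6 TPM in WT. With acetate it summed to 14.1 to 17.4 TPM in ACLY-KO + acetate, against 3.85 to 4.77 TPM in WT + acetate. The NK and gamma-delta T cell list summed to 12.0 to 22.2 TPM in ACLY-KO, 37.5 to 100.8 TPM in GLUT3-KO and 2.45 to 4.27 TPM in WT. Trdc, the delta chain constant region of that list, averaged 15.6 ± 4.95 TPM in ACLY-KO, 62.7 ± 26.8 TPM in GLUT3-KO and 2.62 ± 0.712 TPM in WT. The 12 myeloid and dendritic markers summed to at most 1.83 TPM in ACLY-KO, against at most 0.991 TPM in WT, and to 3.86 to 7.90 TPM in ACLY-KO + acetate, against 1.39 to 1.66 TPM in WT + acetate, with C1qa and C1qb at 0 in every library. Whether any of these cells take part in the values below was not tested. ACLY-KO replicate 1 stands apart from replicates 2 and 3: over the 31 tested genes its TPM ran from 0.0670 to 2.30 times their mean. The ratio was under 0.5 for 9 genes and over 1.5 for 9. Over all 14229 genes it was under 0.5 for 4828 and over 1.5 for 2929, so such ratios were not particular to the list. Median ratios were 1.00 for the list and 0.744 for all genes. The ratio followed exon length across genes (Spearman rho = 0.717, and 0.284 over all 14229 genes, which are not independent).

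**Figure D1:**
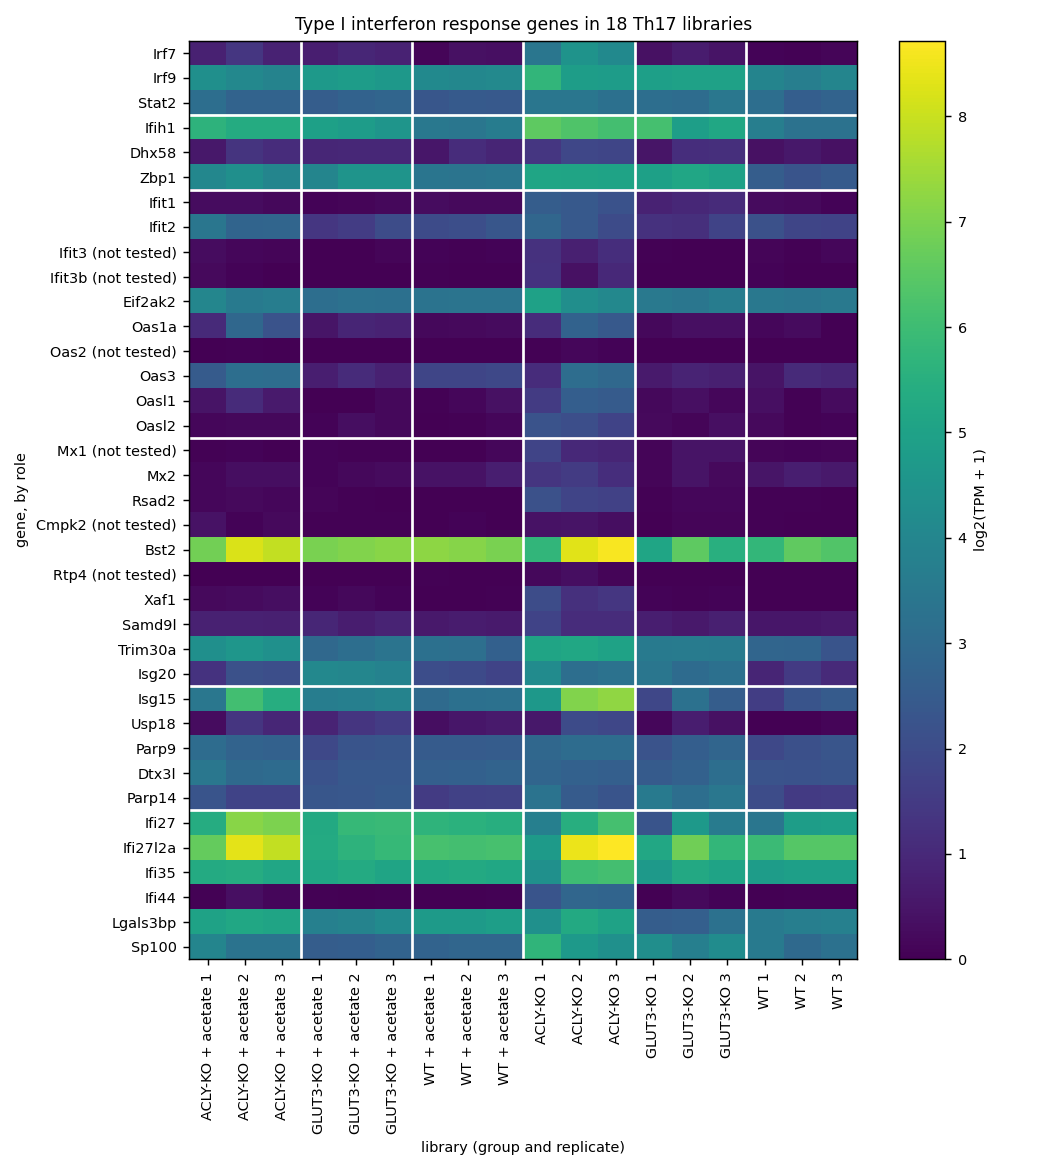
Level of the 37 genes (rows, by role, white lines between roles) in the 18 libraries (columns, white lines between groups), as log2(TPM + 1) by colour. By group mean of TPM, before the log scale of the colours, ACLY-KO is the highest group for 29 genes, ACLY-KO + acetate for 6, GLUT3-KO + acetate for 1 and GLUT3-KO for 1.

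The interferon-beta and interferon-alpha genes themselves were nearly silent outside ACLY-KO cells. Ifnb1, the gene of interferon-beta, had 2.41, 3.11 and 3.31 TPM in the ACLY-KO libraries, from 15, 28 and 24 reads. It had 0 reads in every GLUT3-KO, WT + acetate and WT library, 1 read over ACLY-KO + acetate and 1 over GLUT3-KO + acetate. The ACLY-KO mean of 2.94 ± 0.476 TPM was at least 7.90-fold higher than the 3 reads per library that a count of 0 in WT allows. The gene was called higher in ACLY-KO against WT (limma adjusted p = 1.61e-08) and lower in ACLY-KO + acetate against ACLY-KO (adjusted p = 5.54e-08), and the fitted size depends on the pseudocount. It passed the filter on low values through ACLY-KO alone. The 14 interferon-alpha genes together had 9 reads in ACLY-KO, spread over 5 genes, and 0 reads in each other group. Other type I genes did not follow ACLY-KO. Ifnk had 9 reads in GLUT3-KO, 3 in GLUT3-KO + acetate, 2 in ACLY-KO and 1 in WT. Ifne and Ifnz had 0 reads in ACLY-KO and at most 1 in any other group. The interferon-lambda genes Ifnl2 and Ifnl3 had 22 and 7 reads in ACLY-KO, against 0 and 0 in WT. Ifng, the type II interferon gene, was higher in both knockouts, at 155 ± 58.3 TPM in ACLY-KO and 877 ± 297 TPM in GLUT3-KO, against 44.2 ± 13.4 TPM in WT (log2 change 1.75 ± 0.37, limma adjusted p = 0.00372 for ACLY-KO and log2 change 4.26 ± 0.37, limma adjusted p = 6.36e-07 for GLUT3-KO).

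Without acetate, loss of ACLY went with higher levels across the list. Of the 31 tested genes 25 rose against WT and 0 fell, and the median log2 change was 1.44, where 12.7% of all tested genes rose, 6.38% fell, 19.1% were called in either direction and the median of all was 0.03. All ACLY-KO libraries lay above all WT libraries for 26 of the 31 genes, as they did for 16.1% of all tested genes. This count leans on the filter, because 9 of the 31 (Irf7, Ifi44, Oas1a, Oasl1, Oasl2, Mx2, Rsad2, Xaf1 and Samd9l) reached 1 TPM in no library outside ACLY-KO and ACLY-KO + acetate. Of the other 22 genes, 16 rose and 0 fell. Among the 16, Ifit1 and Usp18 also needed the ACLY-KO groups to reach 1 TPM in at least 3 libraries. Outside those groups Ifit1 reached it only in GLUT3-KO replicate 3 (1.09 TPM). Usp18 did so only in GLUT3-KO + acetate replicates 2 and 3 (1.53 and 1.94 TPM). Log2 changes here and below are limma estimates ± standard error on the log2(TPM + 1) scale, which understates changes of low genes. A fit of the ACLY-KO and WT libraries alone called 12 and lost the calls of Irf9, Stat2, Eif2ak2, Oas1a, Oas3, Isg15, Usp18, Parp9, Parp14, Lgals3bp, Sp100, Mx2 and Samd9l (limma adjusted p 0.0501 for Isg15 to 0.324 for Stat2), and with a filter at 5 TPM 14 of the 20 genes left were called. In whole-culture RNA, more responding cells and more RNA per cell cannot be told apart.

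Among the factors, Irf7 moved most. It had 9.71, 21.1 and 16.8 TPM in the ACLY-KO libraries, against 0.0646, 0.0470 and 0.0735 TPM in the WT libraries (log2 change 3.93 ± 0.22, limma adjusted p = 3.19e-08). All 3 ACLY-KO libraries lie far above every other library, and replicate 1 is the lowest of them. Irf9, the DNA-binding part of ISGF3, had 52.4, 28.0 and 27.4 TPM in ACLY-KO, against 14.4, 12.3 and 14.7 TPM in WT (log2 change 1.26 ± 0.20, limma adjusted p = 4.61e-04). Its groups do not overlap, and here replicate 1 is the highest. Stat2, the STAT protein that binds IRF9 in ISGF3, had 9.77, 9.79 and 8.29 TPM in ACLY-KO, against 7.88, 5.03 and 5.91 TPM in WT (log2 change 0.52 ± 0.16, limma adjusted p = 0.0404). The lowest ACLY-KO library lies just above the highest WT library, and the call was lost without ACLY-KO replicate 1 (log2 change 0.48, limma adjusted p = 0.0615), ACLY-KO replicate 2, WT replicate 2 or WT replicate 3, and with no filter on low values.

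The sensors rose in ACLY-KO cells as well. Ifih1, which encodes the double-stranded RNA sensor MDA5, had 93.2, 78.5 and 68.9 TPM in ACLY-KO, against 12.1, 8.84 and 8.77 TPM in WT (log2 change 2.9 ± 0.25, limma adjusted p = 2.56e-06). Zbp1, a sensor of Z-form nucleic acids that can start cell death, had 33.9, 32.7 and 31.9 TPM in ACLY-KO, against 4.89, 3.80 and 4.59 TPM in WT (log2 change 2.65 ± 0.16, limma adjusted p = 7.22e-08). The ACLY-KO libraries of Zbp1 are tight and stand well apart from WT. Dhx58 encodes LGP2, which tunes MDA5, and had 1.59, 2.59 and 2.51 TPM in ACLY-KO, against 0.311, 0.490 and 0.324 TPM in WT (log2 change 1.22 ± 0.22, limma adjusted p = 0.00129).

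**Figure D2:**
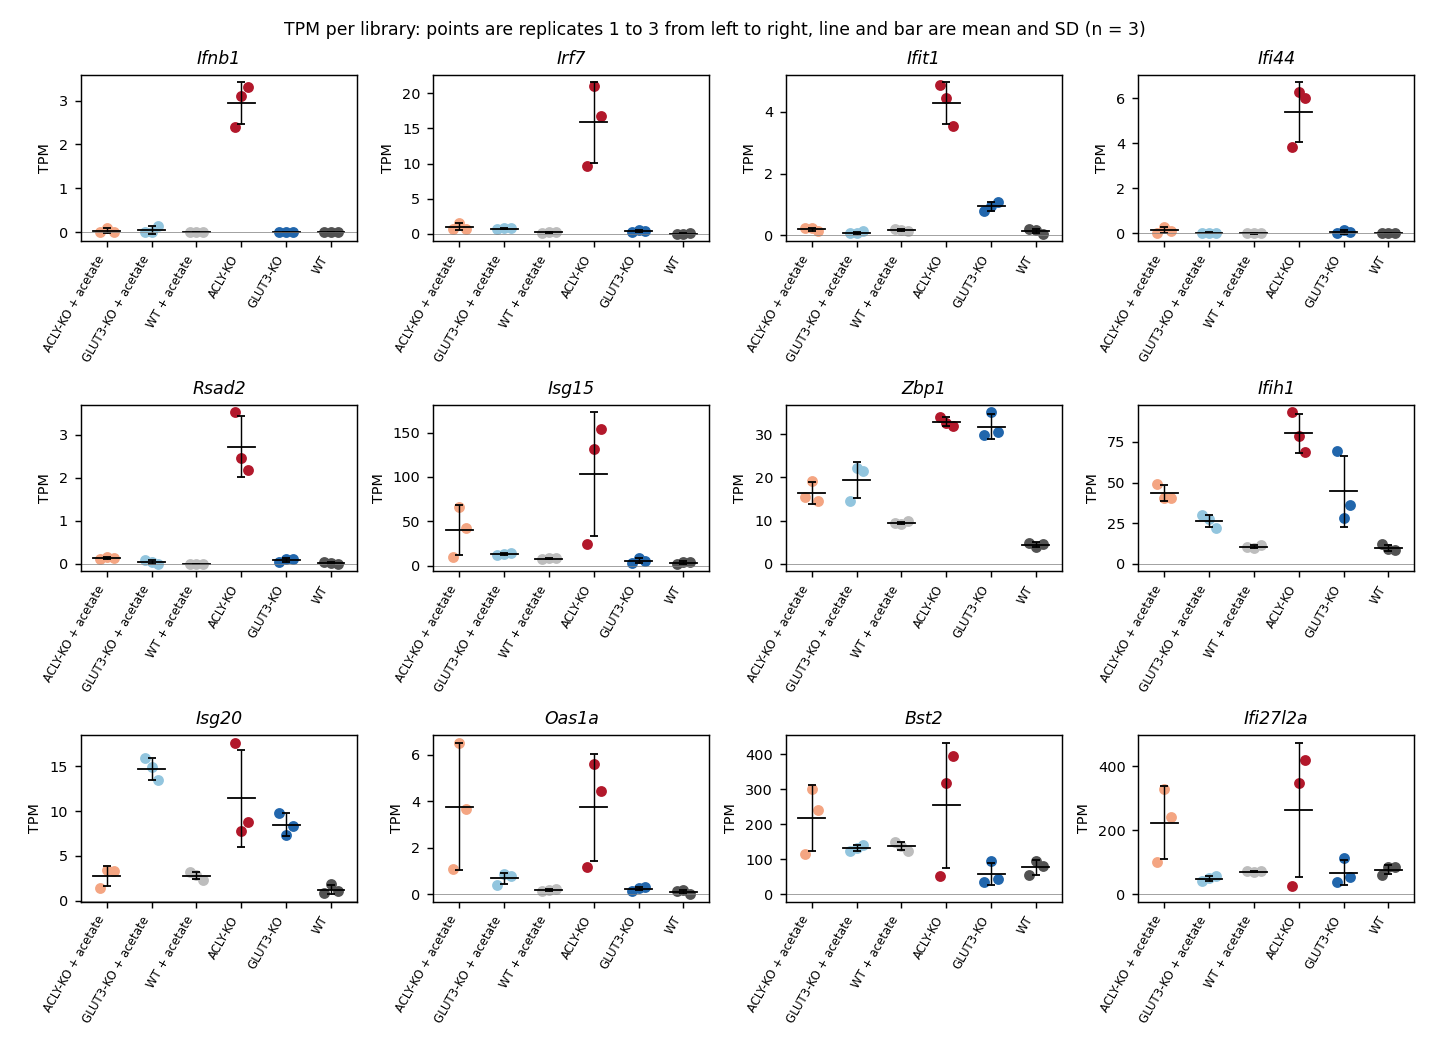
TPM (vertical axis, linear, one scale per panel) of 12 genes in each library of the 6 groups, with the mean and SD of 3 libraries. Ifnb1, Irf7, Ifit1, Ifi44 and Rsad2 stand high in ACLY-KO, while Zbp1, Ifih1 and Isg20 are raised in GLUT3-KO too, and Bst2 and Ifi27l2a show the low ACLY-KO replicate 1.

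Most genes that block translation or cut RNA went the same way. Ifit1, whose product binds viral RNA lacking a host cap mark, had 4.87, 4.44 and 3.55 TPM in ACLY-KO, against 0.190, 0.172 and 0.0539 TPM in WT (log2 change 2.21 ± 0.11, limma adjusted p = 1.25e-08). Eif2ak2, the gene of the kinase PKR, had 30.8, 18.9 and 15.7 TPM in ACLY-KO, against 10.3, 9.60 and 10.4 TPM in WT (log2 change 0.99 ± 0.19, limma adjusted p = 0.00206). Its span overlaps that of Gm6548, a transcribed pseudogene on the same strand, over 2041 bases, so some reads may be shared. Oas1a and Oas3 make the 2′-5′ oligoadenylates that switch on the RNA-cutting enzyme RNase L. Oas3 had 1.13, 7.74 and 6.75 TPM in ACLY-KO, against 0.382, 1.04 and 0.926 TPM in WT (log2 change 1.58 ± 0.39, limma adjusted p = 0.00992), and Oas1a had 1.17, 5.62 and 4.44 TPM in ACLY-KO, against 0.124, 0.181 and 0 TPM in WT (log2 change 1.96 ± 0.40, limma adjusted p = 0.00325). In both genes ACLY-KO replicate 1 is far below replicates 2 and 3, and for Oas3 it barely clears the highest WT library. The related Oasl1 averaged 3.87 ± 1.74 TPM in ACLY-KO and 0.166 ± 0.117 TPM in WT, and Oasl2 averaged 3.13 ± 0.698 TPM in ACLY-KO and 0.0853 ± 0.0668 TPM in WT (log2 changes 1.99 ± 0.23 and 1.92 ± 0.12, both called). Ifit2, a relative of Ifit1, had 6.27, 4.46 and 2.97 TPM in ACLY-KO, against 3.49, 2.51 and 2.34 TPM in WT, and did not pass the test (log2 change 0.53 ± 0.25, limma adjusted p = 0.166).

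Other antiviral effectors ranged from near silence to high levels. Rsad2, which encodes viperin, had 3.53, 2.46 and 2.19 TPM in ACLY-KO, against 0.0330, 0.0240 and 0 TPM in WT (log2 change 1.85 ± 0.11, limma adjusted p = 7.39e-08). Trim30a, a TRIM protein known in the mouse to restrain NF-κB signalling, had 33.3, 35.7 and 31.6 TPM in ACLY-KO, against 6.20, 6.05 and 3.76 TPM in WT (log2 change 2.47 ± 0.18, limma adjusted p = 4.18e-07). Isg20, an exonuclease that degrades RNA, had 17.7, 7.83 and 8.77 TPM in ACLY-KO, against 0.875, 1.82 and 1.03 TPM in WT (log2 change 2.41 ± 0.28, limma adjusted p = 3.83e-05). The groups of these genes do not overlap. Xaf1, a pro-apoptotic gene, averaged 1.98 ± 0.936 TPM in ACLY-KO and 0.0197 ± 0.00432 TPM in WT. Mx2 is named for a dynamin-like GTPase but is annotated as a transcribed pseudogene in this genome. It averaged 1.53 ± 0.344 TPM in ACLY-KO and 0.529 ± 0.134 TPM in WT, and Samd9l 1.56 ± 0.699 TPM in ACLY-KO and 0.462 ± 0.0385 TPM in WT. Xaf1, Mx2 and Samd9l were all called (log2 changes 1.5 ± 0.15, 0.72 ± 0.13 and 0.78 ± 0.15). Bst2 encodes tetherin, which holds budding virions at the membrane, and was the most abundant gene of the list over all libraries. It had 52.5, 317 and 393 TPM in ACLY-KO, against 53.1, 95.5 and 81.4 TPM in WT, and was not called (log2 change 1.32 ± 0.60, limma adjusted p = 0.141). ACLY-KO replicates 2 and 3 lie far above WT and replicate 1 lies below it. Without replicate 1 the gene was called (log2 change 2.23, limma adjusted p = 0.00126).

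Isg15 had the largest log2 change of the list on the log2(TPM + 1) scale, and the same split among replicates. With a pseudocount of 0.1 it came after Irf7, Ifi44 and Rsad2. Isg15 had 23.9, 132 and 154 TPM in ACLY-KO, against 1.98, 3.84 and 4.61 TPM in WT (log2 change 4.21 ± 0.66, limma adjusted p = 4.79e-04). Even the lowest ACLY-KO library is above every WT library, while replicates 2 and 3 are several times higher again. Usp18, which removes ISG15 from proteins and damps the receptor, had 0.488, 3.00 and 2.64 TPM in ACLY-KO, against 0, 0 and 0.0803 TPM in WT (log2 change 1.44 ± 0.33, limma adjusted p = 0.00650). Genes of the pathway outside the list rose as well: Uba7, the enzyme that activates ISG15, averaged 10.9 ± 7.12 TPM in ACLY-KO and 0.635 ± 0.292 TPM in WT (log2 change 2.60 ± 0.42, limma adjusted p = 5.45e-04), and Herc6, which attaches ISG15 in the mouse, averaged 6.54 ± 1.43 TPM in ACLY-KO and 0.896 ± 0.103 TPM in WT (log2 change 1.98 ± 0.15, limma adjusted p = 6.86e-07). The ADP-ribosyltransferase genes Parp9 and Parp14 rose too, Parp9 to 7.17 ± 0.485 TPM in ACLY-KO, against 3.34 ± 0.621 TPM in WT, and Parp14 to 5.84 ± 2.73 TPM in ACLY-KO, against 2.26 ± 0.696 TPM in WT (log2 changes 0.92 ± 0.17 and 1.02 ± 0.24). Dtx3l, the ubiquitin ligase that pairs with PARP9 and whose gene overlaps Parp9 on the opposite strand, just missed the threshold (log2 change 0.49 ± 0.16, limma adjusted p = 0.0508). The span of Parp9 also overlaps that of Gm15564, a long noncoding RNA gene on the opposite strand, over 5871 bases. Gm15564 averaged 82.0 TPM over the 18 libraries, against 5.00 TPM for Parp9. Whether reads are shared there was not tested.

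Of the remaining genes, Ifi44, whose function is poorly known, had 3.85, 6.28 and 6.02 TPM in ACLY-KO, against 0, 0.0318 and 0.0249 TPM in WT (log2 change 2.62 ± 0.14, limma adjusted p = 2.00e-08). Sp100, a nuclear body protein, had 51.2, 24.8 and 19.7 TPM in ACLY-KO, against 11.0, 6.90 and 8.50 TPM in WT (log2 change 1.65 ± 0.29, limma adjusted p = 9.38e-04), and Lgals3bp, a secreted galectin-binding protein, had 19.7, 38.5 and 31.3 TPM in ACLY-KO, against 10.9, 12.1 and 12.8 TPM in WT (log2 change 1.20 ± 0.22, limma adjusted p = 0.00122). These 3 genes show no overlap between ACLY-KO and WT. The short genes Ifi27l2a, Ifi27 and Ifi35 were not called: Ifi27l2a had 25.8, 349 and 419.7 TPM in ACLY-KO, against 59.9, 84.3 and 83.7 TPM in WT (log2 change 1.05 ± 0.78, limma adjusted p = 0.369). ACLY-KO replicate 1 is below all WT libraries for Ifi27l2a and Ifi35. Without it both were called (log2 changes 2.34, limma adjusted p = 0.00175 for Ifi27l2a and 1.18, limma adjusted p = 4.25e-05 for Ifi35). Ifi27 and Ifi27l2a lie on opposite strands over the same 6057 bases, and no source used here states the strand setting of the counting. The 6 untested genes were also highest in ACLY-KO by group mean. Mx1, annotated as a transcribed pseudogene in this genome, had 2.43, 1.02 and 0.867 TPM in ACLY-KO, against 0.0927, 0.0674 and 0.0791 TPM in WT. Ifit3 had 1.38, 0.699 and 1.18 TPM in ACLY-KO, against 0.0928, 0.0337 and 0.106 TPM in WT, and Ifit3b had 1.43, 0.304 and 0.993 TPM in ACLY-KO, against 0.0556, 0 and 0 TPM in WT. Cmpk2, Rtp4 and Oas2 stayed under 0.4 TPM in every library.

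**Figure D3:**
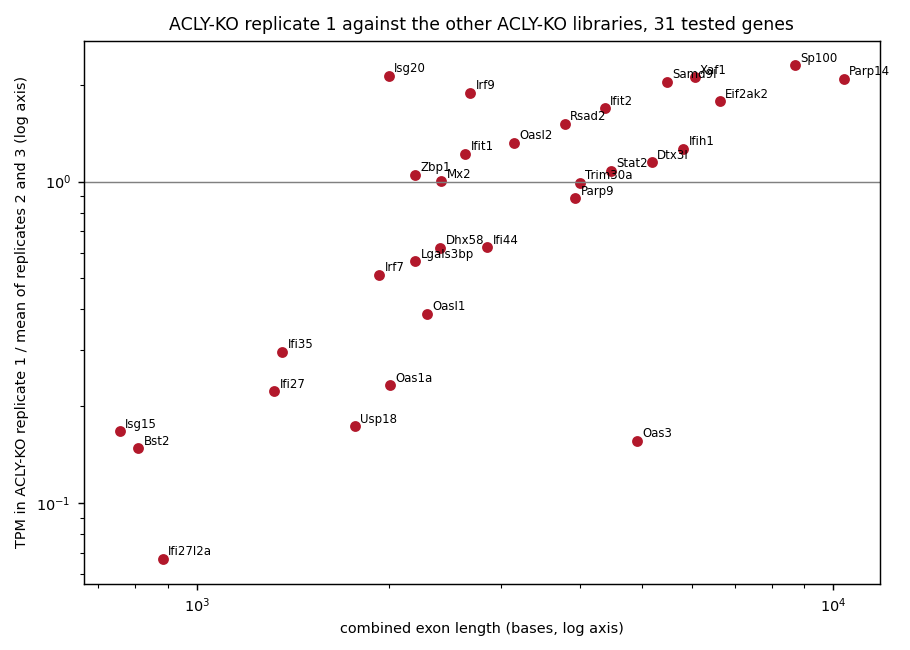
TPM in ACLY-KO replicate 1 divided by the mean of ACLY-KO replicates 2 and 3 (vertical, log axis) against combined exon length (horizontal, log axis) for the 31 tested genes, with a line at a ratio of 1. The short genes Ifi27l2a, Bst2 and Isg15 and the longer Oas3 lie lowest, and Sp100, a long gene, lies highest.

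Loss of GLUT3 moved 10 of the 31 tested genes, of which 9 rose and 1 fell against WT (median log2 change 0.16), where 24.9% of all tested genes rose and 8.47% fell (33.4% either way; median of all 0.17), so the share of the list is close to that of all genes. With median-ratio scaling, which sets the median of all genes to -0.01, 7 rose and 2 fell, and with voom on recovered reads 8 rose and 3 fell. Zbp1 had 29.8, 35.1 and 30.5 TPM in GLUT3-KO, against the WT values above (log2 change 2.60 ± 0.16, limma adjusted p = 1.96e-08). Ifih1 had 69.3, 28.4 and 35.9 TPM in GLUT3-KO (log2 change 1.97 ± 0.25, limma adjusted p = 2.82e-05), with replicate 1 far above the others. Isg20 had 9.81, 7.32 and 8.33 TPM in GLUT3-KO (log2 change 2.10 ± 0.28, limma adjusted p = 4.16e-05). Parp14, Irf9, Trim30a and Ifit1 also rose in GLUT3-KO (log2 changes 1.71 ± 0.24, 1.08 ± 0.20, 0.97 ± 0.18 and 0.77 ± 0.11), as did Sp100 and Dtx3l (0.84 ± 0.29 and 0.56 ± 0.16). The calls of Sp100 and Dtx3l were lost with median-ratio scaling and without WT replicate 2 or GLUT3-KO replicate 3, and that of Sp100 also without WT replicate 3 or GLUT3-KO replicate 1. Lgals3bp fell, to 4.93, 5.27 and 8.49 TPM in GLUT3-KO, below every WT library (log2 change -0.87 ± 0.22, limma adjusted p = 0.00603). Irf7 had 0.309, 0.600 and 0.372 TPM in GLUT3-KO, all above WT, but was not called (log2 change 0.42 ± 0.22, limma adjusted p = 0.152), and Isg15 had 2.64, 8.50 and 4.94 TPM, overlapping WT (log2 change 0.45 ± 0.66, limma adjusted p = 0.638).

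Both losses are compared with the same WT libraries, so the difference between the knockouts was tested directly. In ACLY-KO against GLUT3-KO, 22 of the 31 genes were higher and 1 was lower (median log2 change 1.07), where 15.2% of all tested genes were higher, 25.2% lower and 40.4% called either way. Of the 22 genes that reached 1 TPM outside the ACLY-KO groups, 13 were higher and 1 was lower. Ifit1 and Usp18, which also needed those groups to pass the filter, were among the 13. A fit of these 2 groups alone called 12, Parp14 not among them, and the 5 TPM filter left 12 called of 20. Isg15 (log2 change 3.76 ± 0.66, limma adjusted p = 3.78e-04), Irf7 (log2 change 3.50 ± 0.22, limma adjusted p = 1.57e-08) and Ifi44 (log2 change 2.56 ± 0.14, limma adjusted p = 3.58e-09) had the largest log2 changes on this scale, and with a pseudocount of 0.1 their order was Ifi44, Irf7 and Isg15. Lgals3bp, which moved in opposite directions against WT, was higher in ACLY-KO (log2 change 2.07 ± 0.22, limma adjusted p = 2.94e-06), and Parp14 was lower (log2 change -0.69 ± 0.24, limma adjusted p = 0.0307). Zbp1, Irf9 and Isg20 were not called between the knockouts (log2 changes 0.05 ± 0.16, 0.17 ± 0.20 and 0.31 ± 0.28), and their values overlap.

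**Figure D4:**
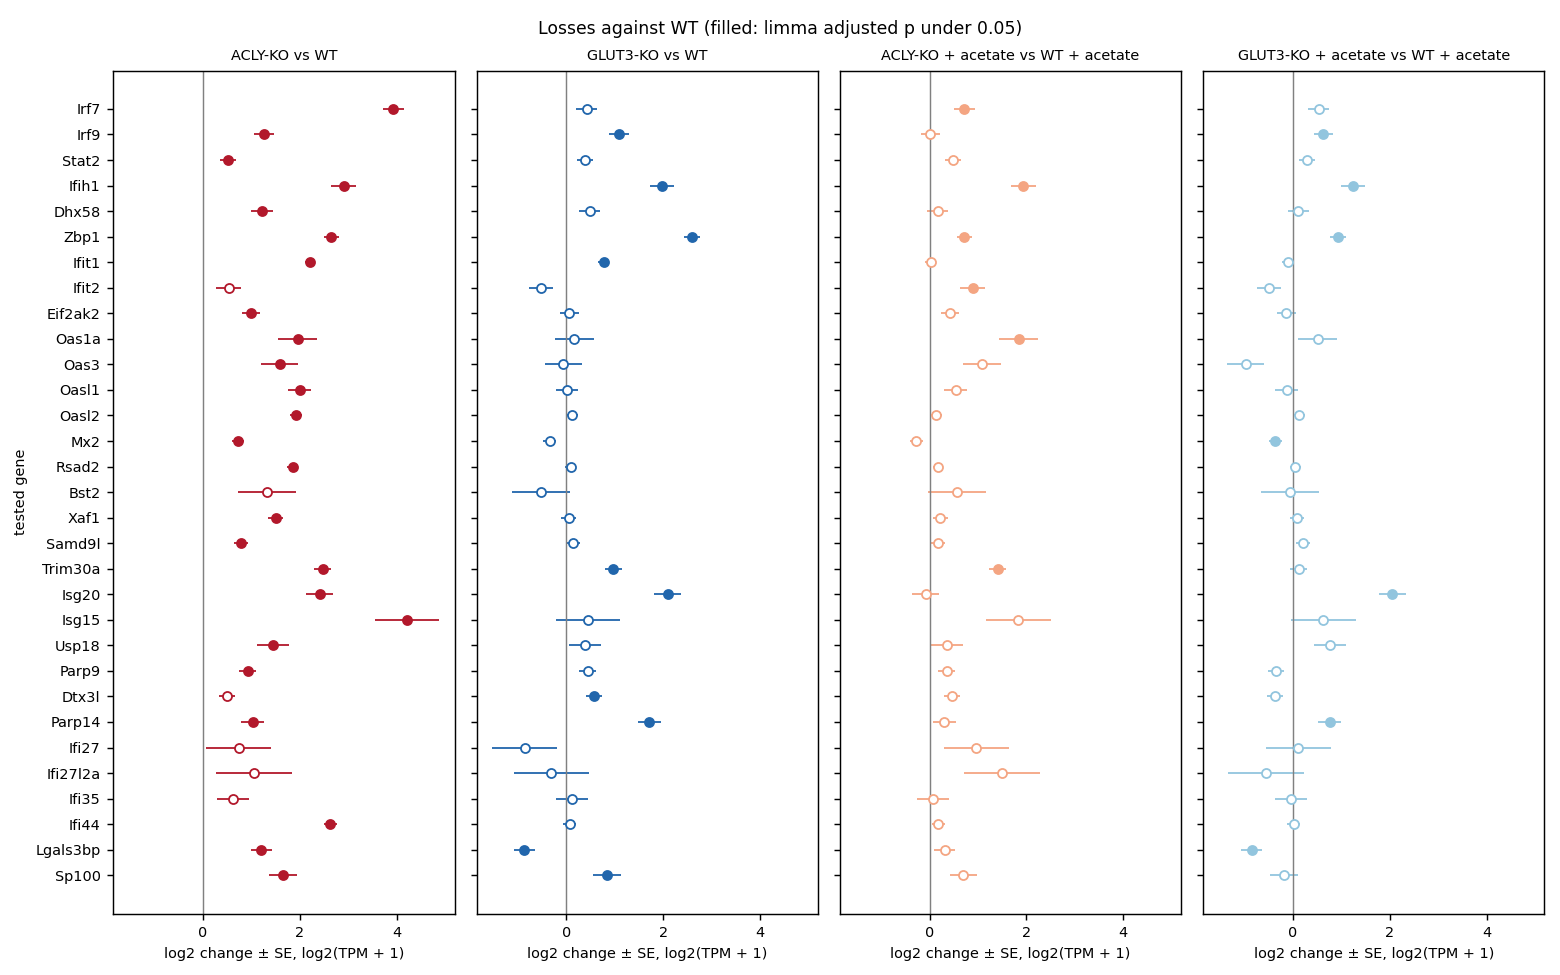
Log2 change ± SE on the log2(TPM + 1) scale (horizontal) of the 31 tested genes (rows) for ACLY-KO and GLUT3-KO against WT, without and with acetate, filled where the limma adjusted p is under 0.05. Filled points number 25, 10, 6 and 7 in the 4 panels from left to right.

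Acetate brought many of these genes down in ACLY-KO cells. In ACLY-KO + acetate against ACLY-KO, 18 of the 31 genes fell and 0 rose (median log2 change -0.70), where 5.6% of all tested genes fell, 11.7% rose and 17.3% were called either way (median of all 0.10). All ACLY-KO + acetate libraries lay below all ACLY-KO libraries for 19 of the 31 genes, as they did for 9.09% of all tested genes. Of the 22 genes that reached 1 TPM outside the ACLY-KO groups, 10 fell and 0 rose. Ifit1, which also needed those groups to pass the filter, was among the 10. Irf7 had 0.757, 1.6 and 0.779 TPM in ACLY-KO + acetate, against 9.71, 21.1 and 16.8 TPM in ACLY-KO (log2 change -3.00 ± 0.22, limma adjusted p = 5.31e-07). Ifi44 had 0.0341, 0.284 and 0.122 TPM in ACLY-KO + acetate, against 3.85, 6.28 and 6.02 TPM in ACLY-KO (log2 change -2.46 ± 0.14, limma adjusted p = 8.03e-08). The groups of both genes are far apart. Ifit1 had 0.222, 0.224 and 0.132 TPM in ACLY-KO + acetate, close to the WT libraries, against 4.87, 4.44 and 3.55 TPM in ACLY-KO (log2 change -2.14 ± 0.11, limma adjusted p = 5.54e-08). Oasl2, Rsad2, Oasl1, Xaf1 and Mx2 fell too (log2 changes -1.85, -1.71, -1.48, -1.27 and -1.07, all called), and Isg20 fell to 1.41, 3.43 and 3.30 TPM in ACLY-KO + acetate, against 17.7, 7.83 and 8.77 TPM in ACLY-KO (log2 change -1.71 ± 0.28, limma adjusted p = 5.84e-04). Irf9, Sp100 and Zbp1 fell as well (log2 changes -1.04 ± 0.20, -1.39 ± 0.29 and -0.97 ± 0.16), as did Ifih1, Parp14, Eif2ak2, Dhx58, Trim30a and Samd9l (between -0.86 and -0.54). A fit of these 2 groups alone called 6 (Irf7, Ifi44, Ifit1, Oasl2, Rsad2 and Mx2), and the 5 TPM filter left 9 called of 20. Markers of cell types moved with acetate in ACLY-KO as well: 7 of the 10 T cell and Th17 markers rose and 0 fell (median log2 change 0.92), both tested B cell markers (Cd79b and Ighm) rose, as did Cd8b1 and H2-Aa, and Cox6a2 fell. The B cell list summed to 23.3 to 32.8 TPM in ACLY-KO + acetate, against 5.52 to 12.1 TPM in ACLY-KO. Their part in the result was not tested.

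Other genes were not called in the fit without pairing. Isg15 had 10.1, 66.4 and 42.6 TPM in ACLY-KO + acetate, against 23.9, 132 and 154 TPM in ACLY-KO, lower in each same-numbered pair (log2 change -1.32 ± 0.66, limma adjusted p = 0.197). Replicate 1 is the lowest library of both groups, and with the replicate number as a block, which pairs the libraries, Isg15 was called (log2 change -1.32, limma adjusted p = 0.00983), as was Usp18 (log2 change -0.62, limma adjusted p = 0.0218; log2 change -0.62 ± 0.33, limma adjusted p = 0.221 without the block). Oas1a had 1.07, 6.53 and 3.69 TPM in ACLY-KO + acetate (log2 change -0.03 ± 0.40, limma adjusted p = 0.967) and Oas3 had 4.65, 7.97 and 7.60 TPM (log2 change 0.53 ± 0.39, limma adjusted p = 0.376), both overlapping their ACLY-KO values. The sign of these last differences turned when single libraries were left out. Ifit2 had 9.82, 5.98 and 6.12 TPM in ACLY-KO + acetate, overlapping ACLY-KO (log2 change 0.59 ± 0.25, limma adjusted p = 0.128). Bst2 had 115, 299.6 and 240.1 TPM and Ifi27l2a 101, 329.6 and 242 TPM in ACLY-KO + acetate, again with replicate 1 lowest (log2 changes 0.11 ± 0.60 and 0.35 ± 0.78, not called).

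**Figure D5:**
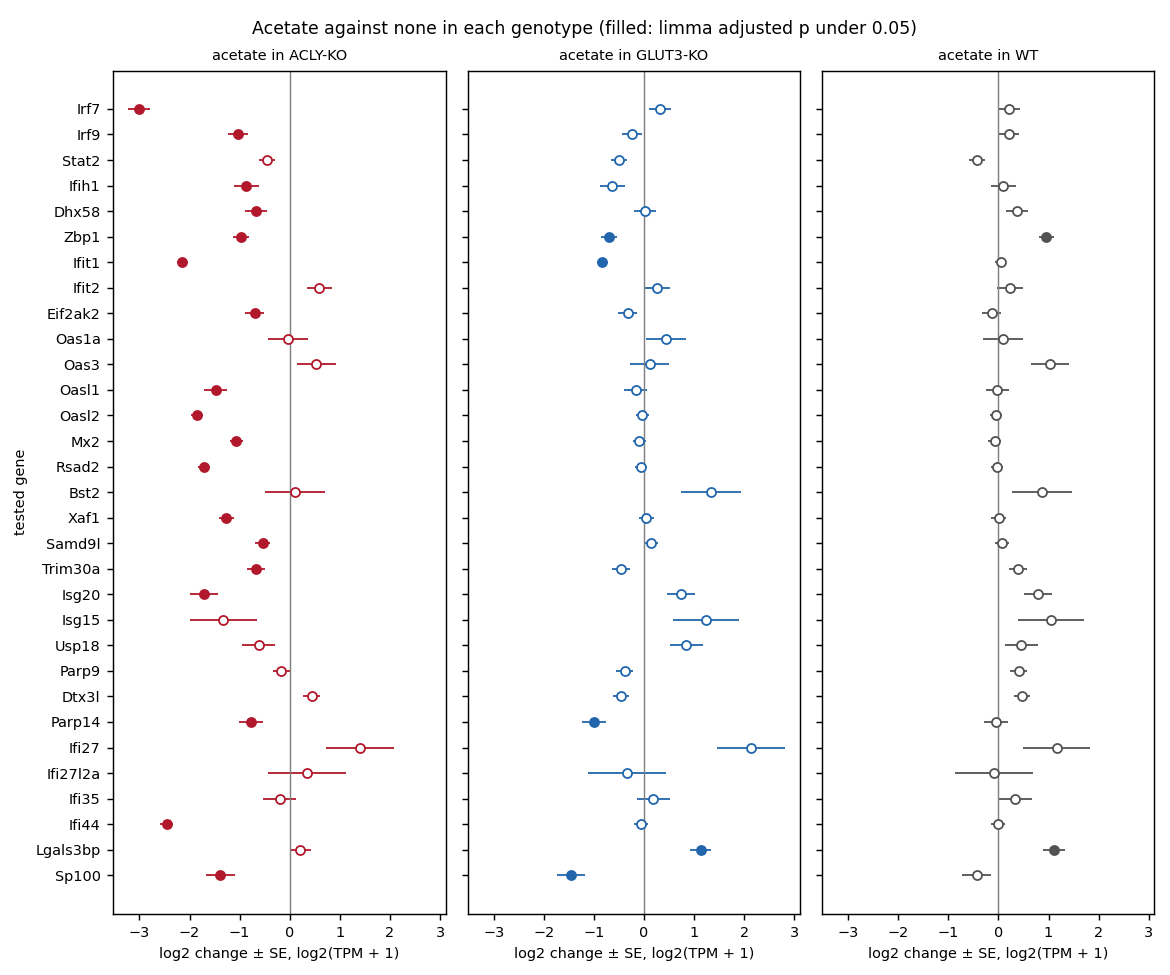
Log2 change ± SE on the log2(TPM + 1) scale (horizontal) of the 31 tested genes (rows) with acetate against without it in ACLY-KO, GLUT3-KO and WT, filled where the limma adjusted p is under 0.05. In ACLY-KO 18 points are filled, all below 0, in GLUT3-KO 5 and in WT 2.

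In WT and GLUT3-KO cells acetate changed few of the genes. In WT + acetate against WT, 2 genes rose and 0 fell, where 4.22% of all tested genes rose, 2.28% fell and 6.5% were called either way. They were Zbp1, with 9.39, 9.31 and 9.83 TPM in WT + acetate, against 4.89, 3.80 and 4.59 TPM in WT (log2 change 0.96 ± 0.16, limma adjusted p = 0.00212), and Lgals3bp, with 25.9, 25.6 and 28.8 TPM in WT + acetate, against 10.9, 12.1 and 12.8 TPM in WT (log2 change 1.10 ± 0.22, limma adjusted p = 0.00661). The count was 4 without ACLY-KO replicate 1, which enters through the shared spread, and 7 in a fit of both WT groups alone. In GLUT3-KO + acetate against GLUT3-KO, 1 rose and 4 fell, where 4.86% of all rose, 7.89% fell and 12.7% were called either way, so in both genotypes the share is near that of all genes. Lgals3bp rose (log2 change 1.13 ± 0.22, limma adjusted p = 0.00352), while Sp100, Parp14, Ifit1 and Zbp1 fell (log2 changes -1.46 ± 0.29, -1.01 ± 0.24, -0.83 ± 0.11 and -0.71 ± 0.16). The replicate block raised this count from 5 to 11, with 6 higher and 5 lower. Leaving out ACLY-KO replicate 1 gave 11 as well, leaving out GLUT3-KO replicate 2 gave 8, and a fit of both GLUT3-KO groups alone gave 8. With median-ratio scaling 2 rose and 4 fell.

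The acetate change itself differed between ACLY-KO and WT for 11 of the 31 genes, all with a lower change in ACLY-KO, where 0.562% of all tested genes had a lower change and 1.34% differed either way (medians -0.96 for the list and 0.12 for all). Of the 22 genes that reached 1 TPM outside the ACLY-KO groups, 4 differed (Irf9, Isg20, Zbp1 and Ifit1). The other 7 had passed the filter through those groups. So had Ifit1, which outside them reached 1 TPM only in GLUT3-KO replicate 3 (1.09 TPM). The 11 genes were Irf7 (log2 change -3.21 ± 0.31, limma adjusted p = 9.85e-05), Isg20, Ifi44, Ifit1, Zbp1, Oasl2, Rsad2, Oasl1, Xaf1, Irf9 and Mx2 (log2 differences -2.49 to -0.99). With the replicate block Isg20 and Mx2 were no longer called (log2 differences -2.49, limma adjusted p = 0.0621 and -0.99, limma adjusted p = 0.0600). The call of Irf9 was lost in 8, and that of Oasl1 in 10, of the 12 fits that left out 1 of the libraries compared. Voom on recovered reads called 6 of the 31 and so did a fit of these 4 groups alone, while leaving out ACLY-KO replicate 1 raised the count to 17. Between GLUT3-KO and WT, 2 of the 31 differed, where 0.548% of all had a lower change and 0.773% differed either way: Zbp1 (log2 change -1.66 ± 0.22, limma adjusted p = 0.00265) and Ifit1 (log2 change -0.88 ± 0.15, limma adjusted p = 0.0136). Ifit1 was no longer called with the replicate block (log2 difference -0.88, limma adjusted p = 0.0648) or with median-ratio scaling.

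The losses were also compared with acetate present. In ACLY-KO + acetate against WT + acetate 6 genes were higher and 0 lower (median log2 change 0.42), where 11.5% of all tested genes were higher, 1.98% were lower, 13.5% were called either way and the median of all was 0.16. All ACLY-KO + acetate libraries lay above all WT + acetate libraries for 22 of the 31 genes, as they did for 38.9% of all tested genes. Of the 22 genes that reached 1 TPM outside the ACLY-KO groups, 4 were called, since Irf7 and Oas1a had passed the filter through those groups. Ifih1 had 49.2, 40.4 and 40.6 TPM in ACLY-KO + acetate, against 10.4, 9.83 and 11.5 TPM in WT + acetate (log2 change 1.94 ± 0.25, limma adjusted p = 2.20e-04). Oas1a had 1.07, 6.53 and 3.69 TPM in ACLY-KO + acetate, against 0.141, 0.167 and 0.204 TPM in WT + acetate (log2 change 1.84 ± 0.40, limma adjusted p = 0.00667). Both sets stand apart from WT + acetate in every library. Trim30a, Ifit2, Zbp1 and Irf7 followed (log2 changes 1.40 ± 0.18, 0.89 ± 0.25, 0.72 ± 0.16 and 0.72 ± 0.22). The call of Irf7 was lost without any 1 of the 6 libraries compared, that of Ifit2 without ACLY-KO + acetate replicate 1, WT + acetate replicate 1 or WT + acetate replicate 2, and those of Zbp1 and Ifit2 with median-ratio scaling. All of the 6 but Ifit2 were also called without acetate. Isg15 had 10.1, 66.4 and 42.6 TPM in ACLY-KO + acetate, against 7.11, 8.33 and 8.50 TPM in WT + acetate (log2 change 1.83 ± 0.66, limma adjusted p = 0.0859), all above but not called. Leaving out ACLY-KO replicate 1 raised the count to 14, and a fit of both groups alone gave 11.

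In GLUT3-KO + acetate against WT + acetate 5 genes were higher and 2 lower (median log2 change 0.09), where 20.9% of all tested genes were higher, 9.5% lower and 30.4% called either way, so the list was called no more often than all genes. The libraries lay all above for 12 and all below for 9 of the 31 genes, as they did for 41.4% and 29.9% of all tested genes. Isg20 had 15.9, 14.9 and 13.4 TPM in GLUT3-KO + acetate, against 3.20, 2.85 and 2.36 TPM in WT + acetate (log2 change 2.05 ± 0.28, limma adjusted p = 5.50e-05), with a wide gap between both groups. Ifih1, Zbp1, Parp14 and Irf9 were higher too (log2 changes 1.24 ± 0.25, 0.93 ± 0.16, 0.76 ± 0.24 and 0.63 ± 0.20), and Lgals3bp and Mx2 were lower (-0.84 ± 0.22 and -0.36 ± 0.13). Mx2 rests on 2, 3 and 4 reads in GLUT3-KO + acetate, against 9, 10 and 24 in WT + acetate. It passed the filter through ACLY-KO alone. Of the 22 genes that reached 1 TPM outside the ACLY-KO groups, 5 were higher and 1 was lower. The count over all 31 genes fell to 4 without GLUT3-KO + acetate replicate 1, GLUT3-KO + acetate replicate 2, WT + acetate replicate 1 or WT + acetate replicate 2, the calls of Parp14 and Mx2 being among those lost in each. It rose to 17 in a fit of both groups alone, and median-ratio scaling gave 4 higher and 5 lower.

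Other genes of the pathway are read against all tested genes, of which 12.7% rose and 6.38% fell in ACLY-KO against WT (median 0.03), and 24.9% rose and 8.47% fell in GLUT3-KO against WT (median 0.17). Of 15 genes from the receptors to the nuclear factors, 3 rose and 1 fell in ACLY-KO against WT, and 9 rose and 0 fell in GLUT3-KO against WT (median log2 changes 0.10 and 0.69), and the ACLY-KO counts are near the shares of all genes. Ifnar1, the first receptor chain, averaged 17.7 ± 0.774 TPM in ACLY-KO, 65.7 ± 4.21 TPM in GLUT3-KO and 16.7 ± 3.61 TPM in WT, and was called for GLUT3-KO (log2 change 1.93 ± 0.15, limma adjusted p = 1.58e-07). Irf1, a factor led mainly by interferon-gamma, was higher in GLUT3-KO (log2 change 2.25 ± 0.29, limma adjusted p = 2.92e-05) and Irf8 in ACLY-KO (log2 change 1.26 ± 0.21, limma adjusted p = 6.61e-04). Of 13 nucleic acid sensing genes, 1 rose and 2 fell in ACLY-KO, and 4 rose and 1 fell in GLUT3-KO (medians -0.05 and 0.29), with the shares that rose below and near those of all genes. Cgas, the cytosolic DNA sensor, averaged 7.00 ± 2.14 TPM in ACLY-KO and 2.84 ± 0.624 TPM in WT (log2 change 1.04 ± 0.18, limma adjusted p = 8.54e-04), and Ddx58, the gene of RIG-I, 10.9 ± 1.30 TPM in GLUT3-KO and 4.70 ± 1.10 TPM in WT (log2 change 1.08 ± 0.19, limma adjusted p = 4.57e-04). Of 19 genes that brake sensing or signalling, 5 rose in ACLY-KO and 7 in GLUT3-KO, and 0 fell in either (medians 0.27 and 0.25).

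Of 44 tested further interferon-induced genes outside the list, 19 rose and 1 fell in ACLY-KO against WT, and 24 rose and 1 fell in GLUT3-KO against WT, where 12.7% and 24.9% of all tested genes rose (medians 0.53 and 0.68, against 0.03 and 0.17 over all). The other 24 and 19 were not called. With acetate in ACLY-KO 4 rose and 10 fell, where 11.7% of all tested genes rose and 5.6% fell. Herc6 was among those that fell (log2 change -0.99 ± 0.15, limma adjusted p = 3.29e-04). With acetate in GLUT3-KO 7 rose and 7 fell (4.86% and 7.89% of all), and in WT 7 rose and 3 fell (4.22% and 2.28% of all). Parp11 and Slfn2 fell in each genotype. The acetate change was lower in ACLY-KO than in WT for 3 of the 44 (Herc6, Slfn1 and Tdrd7), as for 0.562% of all. Of 24 genes led mainly by interferon-gamma, 12 rose in ACLY-KO and 13 in GLUT3-KO against WT, and 0 fell in either. Of all tested genes 12.7% and 24.9% rose (medians 0.48 and 0.56 for these genes, against 0.03 and 0.17 over all). Gbp2, a guanylate-binding protein of that list, averaged 74.6 ± 28.0 TPM in ACLY-KO, 239 ± 53.9 TPM in GLUT3-KO and 24.6 ± 2.97 TPM in WT (log2 change 1.51 ± 0.28, limma adjusted p = 0.00177 for ACLY-KO and log2 change 3.21 ± 0.28, limma adjusted p = 8.56e-07 for GLUT3-KO). Both lists respond to either type of interferon, and Ifng was higher in both knockouts. Its part in these values was not tested. In the fit of ACLY-KO and WT alone Ifng, Irf8, Cgas, Uba7 and Gbp2 were not called (limma adjusted p 0.0632 for Gbp2 to 0.111 for Cgas).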

How the data were processed

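The deposited table gives TPM, an other unit than counts, made by the authors for 45703 genes, with each gene's combined exon length (also an other unit, in bases). Per the labels' protocols, 500 ng of total RNA entered stranded mRNA libraries read as 75 nt single ends. The submitters' processing notes name STAR 2.7.2b, cutadapt, featureCounts 1.6.4, GRCm38.p6, Subread, bcl2fastq 2.20.0.422 and DESeq2, without roles or the strand setting. TPM times exon length gave whole reads in 100% of values under 500 reads (tolerance 0.01), and hence the depth. Intervals and floors (3 reads) cover counting error alone. In all, 18 libraries in 6 groups of 3, as labelled, were used.

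Genes with at least 1 TPM in at least 3 libraries were fitted as log2(TPM + 1) with 1 mean per group, using limma 3.58.1 (R 4.3.3, with a robust, trended prior) on the 18 libraries together. Benjamini-Hochberg adjustment ran over 14229 genes in each of 10 comparisons, with a threshold of 0.05. The test was tested on simulated data first. The genes and pathway lists were chosen with earlier results of these data known. By rule, values per library were given for factors, sensors and the most abundant genes of each role, and genes outside the list by smallest adjusted p. Ifit1, Oas1a, Rsad2, Isg20, Usp18, Ifi44, Mx1, Ifit3, Ifit3b, Uba7, Pacsin1, Cox6a2 and Trdc were added after their values were seen. Some genes that the rule names are not reported here.

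Replicate numbers come from the sample titles. Libraries of the same number deviated together (residual correlations over 0.1 in all 3 pairs) for acetate within each genotype (0.120 to 0.548) and for ACLY-KO with WT (0.285 to 0.577), and not in all 3 pairs for the other comparisons of 2 groups. Alternatives were another pseudocount, no filter, a 5 TPM filter, median-ratio scaling, voom on recovered reads, a fit of the groups compared alone, robust off, replicate blocks, leaving out the 8 libraries scoring positive on the first component of the within-group residuals (63.6% of their variance; some of the 8 score near 0 and some kept libraries score far below it), and leaving out each library in turn.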

Additional observations from a re-analysis of the deposited data

Results flagged for a closer look

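The acetate change differed between genotypes, by the interaction test in limma, for the following genes. In each case the value is the log2 change with acetate in the knockout minus that in WT. For ACLY-KO against WT it was -3.21 for Irf7, -2.49 for Isg20, -2.44 for Ifi44, -2.19 for Ifit1, -1.93 for Zbp1, -1.93 for Ifnb1, -1.79 for Oasl2, -1.68 for Rsad2, -1.46 for Oasl1, -1.28 for Xaf1, -1.25 for Irf9, -1.21 for Herc6 and -0.99 for Mx2. Adjusted p-values ran from 6.87e-06 for Ifit1 to 0.0418 for Oasl1. Irf7, Ifi44, Oasl2, Rsad2, Oasl1, Xaf1 and Mx2 had passed the filter on low values through the ACLY-KO groups, and Ifnb1 through ACLY-KO alone. Ifit1 also needed those groups to pass it. For these genes a larger fall in ACLY-KO leans on the filter. Zbp1 was called higher with acetate in WT and lower with acetate in ACLY-KO. For GLUT3-KO against WT the difference was -1.66 for Zbp1 and -0.88 for Ifit1 (adjusted p = 0.00265 and 0.0136).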

How the results depend on the processing

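Counts of called genes kept within 1.5 times of the values reported with no filter, a pseudocount of 0.1 and robust off. The 5 TPM filter tested 20 of the 37 genes and called 14 for ACLY-KO against WT, 12 for ACLY-KO against GLUT3-KO, 9 for acetate in ACLY-KO, and 3 and 1 for the acetate change in ACLY-KO and in GLUT3-KO minus that in WT. A fit of the groups compared alone, which has fewer libraries to estimate the spread, called 12 for ACLY-KO against WT, 12 for ACLY-KO against GLUT3-KO, 11 and 17 for ACLY-KO and GLUT3-KO against WT with acetate, 6, 8 and 7 for acetate in ACLY-KO, GLUT3-KO and WT, and 6 for the acetate change in ACLY-KO minus that in WT. Median-ratio scaling called 1 for the acetate change in GLUT3-KO minus that in WT, and voom 6 for that in ACLY-KO minus that in WT. The replicate block, where same numbers pair the libraries, called 11 for acetate in GLUT3-KO and 1 for the acetate change in GLUT3-KO minus that in WT. Leaving out the 8 libraries on the positive side of the first within-group component, which leaves GLUT3-KO and WT + acetate with 1 library each that is assumed to vary like the others, called 10 for ACLY-KO against WT with acetate, 9 for acetate in GLUT3-KO, 4 for acetate in WT and 1 for the acetate change in GLUT3-KO minus that in WT. Leaving out 1 library at a time gave 24 to 27 for ACLY-KO against WT, 8 to 13 for GLUT3-KO against WT, 4 to 14 and 4 to 10 for ACLY-KO and GLUT3-KO against WT with acetate, 12 to 20, 4 to 11 and 2 to 4 for acetate in ACLY-KO, GLUT3-KO and WT, 9 to 17 and 2 to 3 for the acetate change in ACLY-KO and in GLUT3-KO minus that in WT, and 18 to 25 for ACLY-KO against GLUT3-KO. The cause of these shifts was not tested. Over 183 changes of single genes and up to 27 other settings, 2516 of 2779 values kept direction and call, 231 lost the call, 28 gained it and 4 turned sign. Those 4 were Oas1a with acetate in ACLY-KO at 0.48, 0.28 and 0.14 without ACLY-KO + acetate replicate 1, ACLY-KO replicate 2 and ACLY-KO replicate 3 (-0.03 with all libraries), and Oas3 at -0.12 without ACLY-KO replicate 1 (0.53 with all). Leaving out single libraries gave from -0.52 (without ACLY-KO replicate 1) to 0.48 for Oas1a and from -0.12 to 0.90 (without ACLY-KO replicate 2) for Oas3. In the comparisons with acetate present, residual correlations of same-numbered libraries were not over 0.1 in all 3 pairs. A low correlation does not exclude pairing, so whether these libraries pair is not known. There the replicate block added calls of Isg15 (log2 change 1.83, limma adjusted p = 0.0158) and Oas3 (log2 change 1.08, limma adjusted p = 0.0302) for ACLY-KO. Beside these and the blocked values given with the results, the block changed no other call of a named gene. Genes under 1 TPM rest on few reads, and Ifnb1 on 15 to 28 per ACLY-KO library.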
